A study of Sus scrofa with 220 samples.

Results

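GJB5 and GJA1 are connexin genes, and they were chosen from 22840 gene entries because they moved in opposite directions between the inner cell mass of the early blastocyst and the epiblast of the spherical embryo. Each symbol matched 1 pig Ensembl identifier, ENSSSCG00000003585 for GJB5 and ENSSSCG00000004241 for GJA1, and both were among the 14721 genes that passed a filter on low values. The values of EB ICM and Sph EPI therefore chose the genes, and they are given as a description with no test. The other 5 cell type labels were not used by this rule. The genes and tests were still picked with earlier results of these data known, so the tests in these labels were not planned blind. Symbol and identifier were paired by a table of gene names, no position in the genome is given here, and the protein and promoter sequences were not analysed here.

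Connexins are membrane proteins that assemble into channels, and channels of neighbouring cells dock to form gap junctions, through which ions and small metabolites pass. Gap junctions couple the cells of the embryo from compaction onwards, and the set of connexins a cell makes helps decide which neighbours it can couple to and what passes. GJA1 is the most widely expressed connexin of mammalian tissues and is known from epiblast-derived pluripotent cells, whereas GJB5 is best known from trophoblast and stratified epithelia.

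The study followed the first lineages of the pig embryo by Smart-seq2, a method that sequences the polyadenylated RNA of a cell picked by hand. All embryos came from artificially inseminated sows, and those sequenced here carried no genetic change and received no treatment. The 220 cells fell into 7 labels, 47 cells of the Morula from 8 embryos, 24 of the early blastocyst (EB) inner cell mass (ICM) from 7, 28 of the EB trophectoderm (TE) from 10, 25 of the late blastocyst (LB) epiblast (EPI) from 4, 36 of the LB hypoblast (HYPO) from 5, 48 of the spherical embryo (Sph) EPI from 4 and 12 of the Sph HYPO from 3. The TE had been removed from the late blastocysts by immunosurgery, and EPI and HYPO of spherical embryos had been separated by hand, so no TE cells of these later stages were analysed. The study gave each cell a sex from its Y chromosome expression. By that measure all Sph HYPO cells were male and most LB HYPO cells female, and the other labels held both sexes in varying shares. Sex was not part of the fits.

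Counts per cell ran from 1012604 to 5696373 with a median of 2006853, and the median was lowest in LB HYPO (1660325) and highest among Sph EPI cells (2235586). Each cell was a library of its own, and no cell identifier occurred in more than 1 library. The labels fitted their marker genes. All 6 HYPO markers measured exceeded 1 TPM, the deposited transcript level scaled for length and depth, in at least 50% of the cells of LB HYPO and of Sph HYPO, and all 6 EPI markers in Sph EPI, against 4 of 6 in LB EPI. In EB TE, 6 of 7 TE markers did so, CDX2 being the exception. Sph HYPO also held the TE-associated genes GATA3, DAB2, KRT8 and KRT18 in at least 50% of its cells, but not TFAP2A, and GATA2 and CDX2 were at 0 there. KRT8 and KRT18 reached this share in every label. DAB2 did so in Morula, EB TE and LB HYPO too, and GATA3 elsewhere in EB TE alone. Since cells of an embryo are not independent replicates, the cells that shared an embryo and a label were added up to 1 sum, 41 sums in all, and levels of a sum are in CPM, counts scaled to library size.

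GJB5 was present in nearly every cell before the EPI and HYPO separated and was almost missing from EPI. It exceeded 1 TPM in 47 of 47 Morula cells, 23 of 24 EB ICM cells and 26 of 28 EB TE cells, with median TPM of 476, 611 and 301. In the late blastocyst it exceeded 1 TPM in 32 of 36 LB HYPO cells but in 3 of 25 LB EPI cells, or 12% (95% Clopper-Pearson interval 2.55% to 31.2%). In the spherical embryo it did so in 5 of 12 Sph HYPO cells and in 1 of 48 Sph EPI cells, a cell of embryo D that held a single GJB5 count. Intervals cover counting error only.

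GJA1 had nearly the opposite distribution. It exceeded 1 TPM in 47 of 48 Sph EPI cells and 20 of 25 LB EPI cells, with median TPM of 77.1 and 44.9, and its median was 0 in the other 5 labels. No EB ICM cell held a GJA1 count. With 3 cells as the limit, 0 of 24 allows a share of up to 12.5% of cells with a count, which says nothing of cells whose level was too low to be counted. It passed 1 TPM in 4 of 47 Morula cells, 3 of 28 EB TE cells, 8 of 36 LB HYPO cells and 1 of 12 Sph HYPO cells. In LB EPI, the EPI label not used by the rule of choice, 17 of 25 cells held GJA1 without GJB5. Most LB HYPO cells, 25 of 36, held GJB5 without GJA1.

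**Figure D1:**
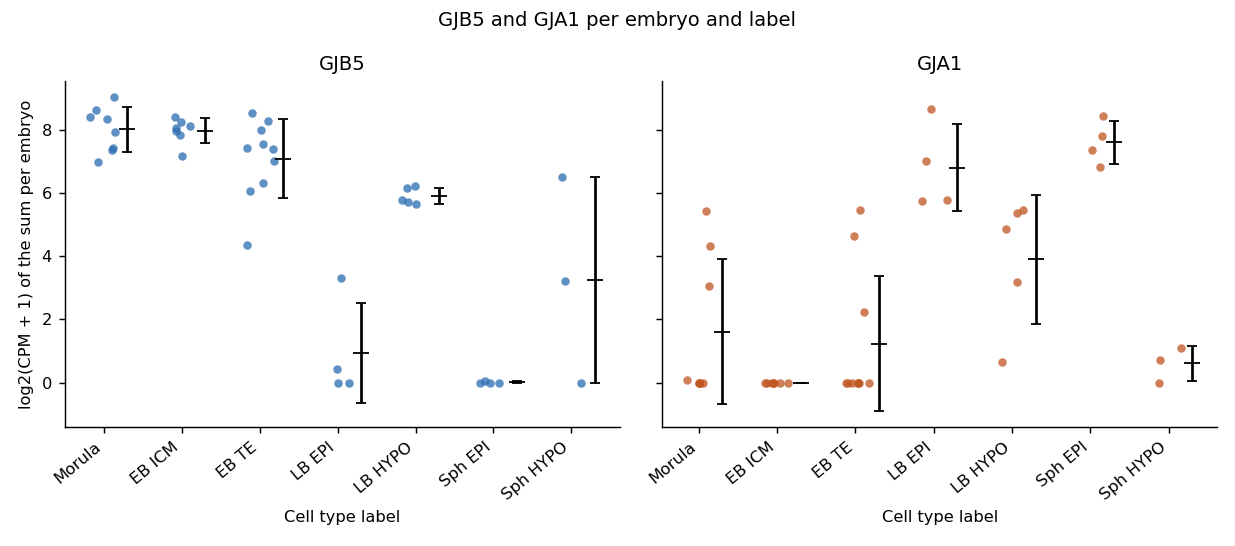
Level of GJB5 (left) and GJA1 (right) in each sum of 1 embryo and label, on the vertical axis as log2(CPM + 1), by cell type label on the horizontal axis. Each point is 1 embryo, and the bar to its right is the mean ± SD over embryos. GJB5 was high in all 8 Morula and all 7 EB ICM sums and near 0 in the 4 Sph EPI sums, whereas GJA1 was at 0 in all 7 EB ICM sums and high in the 4 Sph EPI sums.

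The sums per embryo gave the order of the levels. For GJB5 the mean log2(CPM + 1) was 8.03 ± 0.71 (SD, n = 8) in Morula, 7.99 ± 0.40 (n = 7) in EB ICM, 7.10 ± 1.25 (n = 10) in EB TE, 5.92 ± 0.26 (n = 5) in LB HYPO, 3.25 ± 3.26 (n = 3) in Sph HYPO, 0.94 ± 1.60 (n = 4) in LB EPI and 0.01 ± 0.03 (n = 4) in Sph EPI. The range of each label overlapped with that of the next in this order. Overlap of ranges is not a test, and of these neighbours only LB HYPO and Sph HYPO were tested against each other. For GJA1 the order was Sph EPI with 7.63 ± 0.68 (n = 4), LB EPI with 6.81 ± 1.38 (n = 4), LB HYPO with 3.91 ± 2.04 (n = 5), Morula with 1.62 ± 2.29 (n = 8), EB TE with 1.24 ± 2.14 (n = 10), Sph HYPO with 0.61 ± 0.56 (n = 3) and EB ICM with 0 in all 7 embryos. Among neighbours in the GJA1 order, LB EPI and LB HYPO alone did not overlap.

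In the contrast that chose the genes, GJB5 lay between 145 and 344 CPM in the 7 EB ICM sums, with a median of 268, and was at 0 in 3 of the 4 Sph EPI sums and at 0.042 CPM in embryo D. Over all cells this was 15578 counts in EB ICM against 1 in Sph EPI, a ratio, scaled for library size, of 33920 with a counting interval of 6087 to 1339837. GJA1 was at 0 in each of the 7 EB ICM sums, and had 114 CPM in Sph EPI embryo C, 352 in D, 226 in E and 164 in F. Against a floor of 3 counts over the EB ICM cells, its 20869 counts in Sph EPI were at least 3195-fold higher after scaling for library size. These values describe the choice of the genes, and nothing is read from them. In the same contrast 990 of 14721 genes (6.73%) were called by edgeR at an adjusted p under 0.05, 322 higher in EB ICM and 668 higher in Sph EPI.

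The comparison of Morula with EB TE asked whether either gene differed before and after the first lineage decision on the side that forms the placenta. GJB5 ranged from 127 to 536 CPM over the 8 Morula embryos with a median of 288, and from 19.5 to 376 CPM over the 10 EB TE embryos with a median of 170. The ranges overlapped widely, and the lowest TE value came from embryo E6-ER, a single cell. The log2 fold change of Morula over EB TE was 0.71 with an SE of 0.44, and edgeR's quasi-likelihood test gave an adjusted p of 0.437. GJA1 was at 0 in 4 of 8 Morula embryos and 7 of 10 EB TE embryos, with highest values of 42.6 and 43.5 CPM, and the fold change was 0.28 with an SE of 1.88 (adjusted p 1 in edgeR). Neither gene was called, where edgeR called 119 of 14721 genes (0.808%). The GJB5 difference was 0.44 within the first 4 of 8 library pools and 0.93 within the last 4. Without Morula embryo V, the GJA1 difference turned to -0.95.

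Within early blastocysts, 7 embryos gave both ICM and TE cells. GJB5 was higher in the ICM sum of 4 of them and in the TE sum of 3. In embryo AC, for example, it had 311 CPM in ICM and 312 in TE, while in embryo AD it had 268 in ICM and 78.7 in TE. GJA1 was at 0 in both sums of 4 embryos and was found in the TE sum alone in the other 3, at 3.7 CPM in AA, 43.5 in AG and 24.3 in AI. These were 3 single TE cells that also held GJB5.

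LB EPI, which the rule of choice did not use, was low for GJB5 and high for GJA1. GJB5 was at 0 in embryos AN and AP, at 0.342 CPM in AO and at 9.0 CPM in AQ, all below the lowest Morula embryo at 127 CPM. On the log2 scale it was 6.75 lower than in Morula, with an SE of 1.30 (edgeR, adjusted p 0.00385), where 1279 of 14721 genes (8.69%) were called. An exact permutation test over the embryos gave a two-sided p of 0.0040, the smallest that 8 against 4 embryos can give. Without embryo AQ the difference was 11, since the other 3 embryos held 4 GJB5 counts in all. Within the first 4 library pools it was 5.99 with an adjusted p of 0.0632 in edgeR, and within the last 4 it was 10.9 with an adjusted p of 1.14e-05.

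GJA1 had 410 CPM in LB EPI embryo AN, 52.7 in AO, 54.7 in AP and 129 in AQ, all above the highest Morula embryo at 42.6 CPM. Its log2 fold change of Morula over LB EPI was -4.28 with an SE of 1.64, which edgeR did not call (adjusted p 0.103). The exact permutation test, in which the groups did not overlap, gave a two-sided p of 0.0040, and limma on the mean log2(TPM + 1) gave an adjusted p of 0.00402. Within the first and the last 4 pools the fold change was -4.07 and -5.47. These exact tests are 8 in all, of 2 genes in 4 comparisons, and their p-values are not adjusted. The Morula counts of GJA1 were uneven: of 523 in all, 267 were from embryo V, 149 from T and 106 from ER, and the other 5 embryos together had 1.

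**Figure D2:**
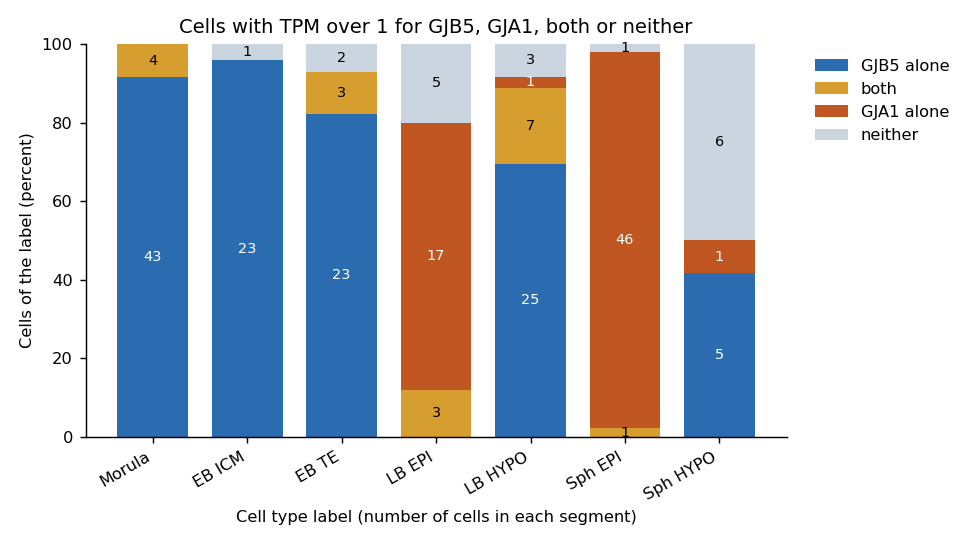
Share of the cells of each label (vertical axis, percent) with TPM over 1 for GJB5 alone, both genes, GJA1 alone or neither, with the number of cells in each segment. Cells with GJB5 alone were 43 of 47 in Morula and 25 of 36 in LB HYPO, and cells with GJA1 alone were 17 of 25 in LB EPI and 46 of 48 in Sph EPI.

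Few cells held both genes. Above 1 TPM, 119 of the 220 cells had GJB5 alone, 65 had GJA1 alone, 18 had both and 18 had neither. EB ICM and Sph EPI, whose values chose the genes, gave 23 of the 119 and 46 of the 65. The rule thus partly fixed this tally, and whether the genes avoided each other within a label was not tested. The cells with both were 4 in Morula, 3 in EB TE, 3 in LB EPI, 7 in LB HYPO and 1 in Sph EPI, and none were in EB ICM or Sph HYPO. In other words, each Morula or EB TE cell with GJA1 also had GJB5, and each LB EPI cell with GJB5 also had GJA1. For Morula this was given, as all 47 of its cells had GJB5. Of the 18, 15 had more GJB5 than GJA1 in TPM, and the other 3 were LB EPI cell AO25, LB HYPO cell AO17 and Sph EPI cell D15, in which GJB5 had 4, 1 and 1 counts. Among the 15, cells T1, AQ5, AM10, AM14 and AM6 had more GJA1 than GJB5 in counts, which are not scaled for length. The order of the genes in those cells therefore rests on the annotated transcript lengths.

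The cells with both genes had unequal levels by label. In the 4 Morula cells GJB5 was between 93.6 and 1014 TPM and GJA1 between 14.4 and 46.01 TPM. In LB HYPO cell AM14 the levels came closest in proportion, with 115 TPM of GJB5 and 81.9 of GJA1. LB EPI cell AQ6 had the highest GJB5 of its label, 114 TPM, with 12.5 TPM of GJA1.

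**Figure D3:**
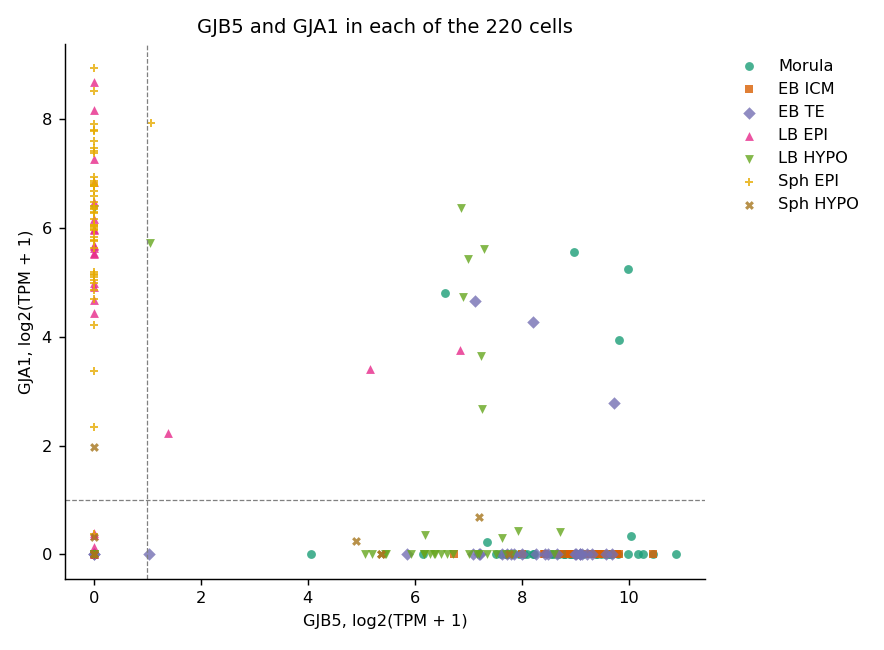
GJB5 (horizontal axis) and GJA1 (vertical axis) in each of the 220 cells as log2(TPM + 1), by label, with dashed lines at 1 TPM. Most cells lie along one axis or the other, and the 18 cells above both lines are mainly Morula, EB TE and LB HYPO cells with GJB5 above GJA1.

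The cells that departed from their label were set beside the marker genes of the other lineages. The 3 LB EPI cells with GJB5 came from embryos AO and AQ and from 3 library pools, and their summed HYPO markers were 0 to 30.7 TPM against 0 to 105 in the other 22 cells. Their summed EPI markers were 312 to 1833 TPM against 78.3 to 2202. The 8 LB HYPO cells above 1 TPM of GJA1 came from 4 of 5 embryos, with 0 to 191 TPM of summed EPI markers against 0 to 150 in the other 28 cells and 206 to 751 TPM of summed HYPO markers against 0.173 to 528. NODAL and SFRP2 were at 0 over all LB HYPO cells. The median of the summed EPI markers was 23.6 TPM in the 8 cells and 37.2 in the 28.

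The LB EPI cells at or under 1 TPM of GJA1 were 5, of embryos AP and AQ, and 3 of them still had 0.0953, 0.287 and 0.307 TPM. Their median count total was 1745020 against 1912584 in the 20 cells above 1 TPM, their summed EPI markers were 363 to 1129 TPM and their summed HYPO markers 0 to 47.3 TPM. The part of depth in their low GJA1 was not tested. In the lone Sph EPI cell under 1 TPM, from embryo F, GJA1 was listed at 0.291 TPM. Above 0 TPM, GJA1 was thus found in 48 of 48 Sph EPI cells and 23 of 25 LB EPI cells.

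LB EPI against LB HYPO compares sister lineages of the same stage. GJB5 had 50.3 to 73.9 CPM in the 5 LB HYPO embryos against 0, 0.342, 0 and 9.0 CPM in LB EPI. The groups did not overlap, and the log2 fold change of LB EPI over LB HYPO was -4.74 with an SE of 1.68. edgeR did not call it (adjusted p 0.203), in a comparison in which 283 of 14721 genes (1.92%) were called. The exact permutation test gave a two-sided p of 0.016, the smallest for 4 against 5 sums. DESeq2, limma and a model of all 7 labels called it, with adjusted p of 0.0164, 0.0155 and 0.0356. All of these took the sums as independent, although embryos AN, AO and AP gave sums of both labels, so their p-values ignore that pairing. Within the first and the last 4 pools it was -3.95 and -8.09. Without embryo AQ the fold change was -8.83 and was called (adjusted p 0.0334 in edgeR).

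GJA1 had 40.9 CPM in LB HYPO embryo AL, 28.4 in AM, 43.2 in AN, 8.1 in AO and 0.562 in AP, all below the lowest LB EPI embryo at 52.7 CPM. Its log2 fold change of LB EPI over LB HYPO was 2.72 with an SE of 1.01 (adjusted p 0.219 in edgeR), and the exact permutation p, again without the pairing, was 0.016. Within the first and the last 4 pools it was 3.15 and 1.69. Embryos AN, AO and AP gave cells of both labels, and a model with a block for the embryo called 20 genes in edgeR in place of 283. The blocked fold changes were -9.77 for GJB5 (adjusted p 0.221) and 3.92 for GJA1 (adjusted p 0.380).

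**Figure D4:**
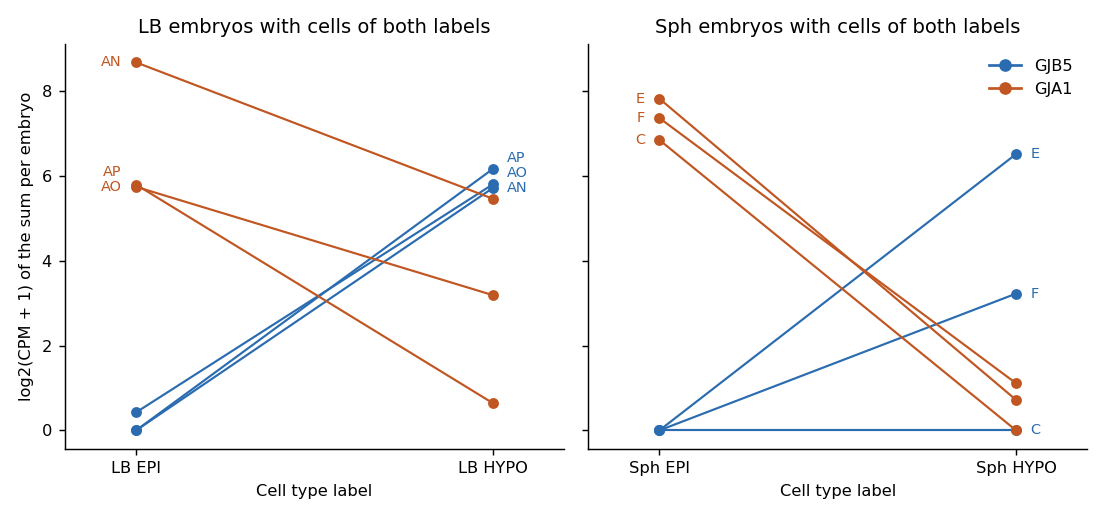
Level of GJB5 and GJA1 as log2(CPM + 1) in the EPI and HYPO sums of the same embryo, for the 3 LB embryos (left) and 3 Sph embryos (right) with cells of both labels. Lines join the sums of 1 embryo: GJA1 was higher in EPI in all 6 embryos, and GJB5 was higher in HYPO in 5 of them and at 0 in both sums of embryo C.

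Within single embryos the opposite order of the genes held. In embryo AN, GJB5 had 0 CPM in EPI and 51.6 in HYPO, and GJA1 had 410 and 43.2. In AO, GJB5 had 0.342 and 54.9 CPM and GJA1 had 52.7 and 8.1. In AP, GJB5 had 0 and 70.9 CPM and GJA1 had 54.7 and 0.562. GJB5 was higher in HYPO and GJA1 higher in EPI in 3 of 3 late blastocysts.

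Spherical embryos kept this order for GJA1 and less evenly for GJB5. GJA1 had 114 CPM in EPI and 0 in HYPO of embryo C, 226 and 0.645 in E, and 164 and 1.16 in F. GJB5 was at 0 in the EPI sums of these 3 embryos, and its HYPO sums held 0 CPM in C, 90.7 in E and 8.36 in F. Since Sph EPI was used to choose the genes, this is a description.

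LB HYPO against Sph HYPO asked whether the hypoblast changed between the stages. By the study's assignment most LB HYPO cells were female and all Sph HYPO cells male. Stage and sex thus went largely together, and the part of sex was not tested. GJB5 lay within 50.3 to 73.9 CPM in LB HYPO, while Sph HYPO embryos C and F lay below it, with 0 and 8.36 CPM, and embryo E above it, with 90.7. The log2 fold change was 0.83 with an SE of 1.44 (adjusted p 0.972 in edgeR), and the exact permutation p was 0.214, where 3 against 5 embryos cannot go below 0.036. All 5 Sph HYPO cells with GJB5 were from the last 4 library pools, 5 of 7 cells, and none of the 5 cells of the first 4 pools had it. Within embryo F it was 0 of 3 cells in the first 4 pools and 3 of 5 in the last 4, and both cells of C were in the first 4 and both of E in the last 4. The fitted fold change in the first 4 pools was 11.8 (adjusted p 0.0783 in edgeR). The Sph HYPO cells there held no GJB5 count, so this size is not an estimate. The fold change was -0.30 in the last 4 pools, and the part of the pools was not tested. It was 3.86 without Sph HYPO embryo E and 2.68 with limma, uncalled in both. The 5 cells had summed TE markers of 15512 to 57235 TPM against 17575 to 70511 in the 7 others.

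GJA1 had 0 CPM in Sph HYPO embryo C, 0.645 in E and 1.16 in F, against 0.562 to 43.2 CPM in LB HYPO, and the groups overlapped through embryo AP. The log2 fold change of LB HYPO over Sph HYPO was 5.24 with an SE of 2.30 (adjusted p 0.484 in edgeR), and the exact permutation p was 0.107. DESeq2 called it, with 5.27 and an adjusted p of 0.0117. Neither member was called by edgeR in this comparison, where 24 of 14721 genes (0.163%) were.

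The other connexins put GJB5 and GJA1 in context. Of 21 connexin genes 9 were matched by symbol and the others were not analysed here. Of the 9, 6 were tested, GJA1, GJB5, GJA9, GJA10, GJB1 and GJC1. The other 3 did not pass the filter on low values. TPM is scaled by transcript length, so these values can be compared between genes as far as the annotated lengths hold, which was not tested.

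In the summed TPM of these 9 connexins, GJB5 made up 92.1% ± 13.3 (SD, n = 8) in Morula, 93.6% ± 4.72 (n = 7) in EB ICM and 97.0% ± 4.92 (n = 10) in EB TE. The sum itself was 590 ± 244 TPM in Morula, 595 ± 127 in EB ICM and 393 ± 241 in EB TE. In the 4 later labels the highest mean share of any gene was 62.3%. GJC1 made up 5.07% ± 11.96 in Morula, which rested on embryo V with 34.6%. Without V, left out after these values were seen, GJC1 was 0.852% ± 0.818, GJA9 1.48% ± 3.78 and GJB5 96.7% ± 3.46 (n = 7). In EB ICM, GJB1 made up 3.60% ± 3.94.

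GJC1, best known from heart and vascular smooth muscle, accompanied GJA1 in EPI. It exceeded 1 TPM in 46 of 48 Sph EPI cells and 14 of 25 LB EPI cells. In Sph EPI, GJC1 was 62.3% ± 20.8 and GJA1 37.1% ± 20.7 of the connexin TPM (n = 4), and GJC1 was the higher of the pair in 3 of 4 embryos and 36 of 48 cells. Embryo D had the reverse order, with 193 TPM of GJA1 and 119 of GJC1, and embryo C had 52.7 and 292. In LB EPI, GJA1 was 51.0% ± 18.9 and GJC1 38.1% ± 18.3 (n = 4), with GJA1 the higher in 3 of 4 embryos.

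Both genes were found together in 45 of 48 Sph EPI cells and in 11 of 25 LB EPI cells. Whether they met more often than their separate shares imply was not tested. The GJC1 counts were 471 in EB ICM and 19324 in Sph EPI, but edgeR did not call it between these labels, with a log2 fold change of EB ICM over Sph EPI of -4.39, an SE of 1.56 and an adjusted p of 0.0986. It was not called between LB EPI and LB HYPO either (3.25, SE 1.52, adjusted p 0.250). GJC1 also stood in 6 of 12 Sph HYPO cells, where GJA1 stood in 1.

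GJB1, the main connexin of hepatocytes, accompanied GJB5 in HYPO. It exceeded 1 TPM in 36 of 36 LB HYPO cells and 11 of 12 Sph HYPO cells. In LB HYPO the shares of the connexin TPM were 47.4% ± 13.0 for GJB5 and 41.2% ± 6.88 for GJB1 (n = 5), and 17 cells had more GJB5 and 19 more GJB1. In Sph HYPO they were 27.7% ± 36.6 for GJB5, 39.1% ± 15.9 for GJB1 and 32.98% ± 20.7 for GJC1 (n = 3). Since every LB HYPO cell held GJB1, each one with GJB5 did so too, and 28 of the 36 held GJB1 without GJA1.

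GJB1 was the connexin that edgeR called between LB EPI and LB HYPO, lower in LB EPI by 7.83 on the log2 scale (SE 1.37, adjusted p 0.0107), with 33 counts in LB EPI and 9339 in LB HYPO. It was called between EB ICM and Sph EPI too (adjusted p 0.0210 in edgeR), with 1686 counts in EB ICM, where 12 of 24 cells exceeded 1 TPM, and none in Sph EPI, at least 1224-fold higher in EB ICM after the same scaling. In EB TE it had 2 counts. Of the 4 tested connexins other than the members, GJB1 was the 1 that edgeR called in any of the 5 comparisons. Over all 14721 genes edgeR called 1.92% between LB EPI and LB HYPO and 6.73% between EB ICM and Sph EPI. Between EB ICM and Sph EPI, DESeq2 called GJA9 and GJB1 among 2079 of 14721 genes, and limma called GJC1 among 1722. Between Morula and EB TE, DESeq2 called GJC1 among 611. These counts are not read as a result about the connexins.

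**Figure D5:**
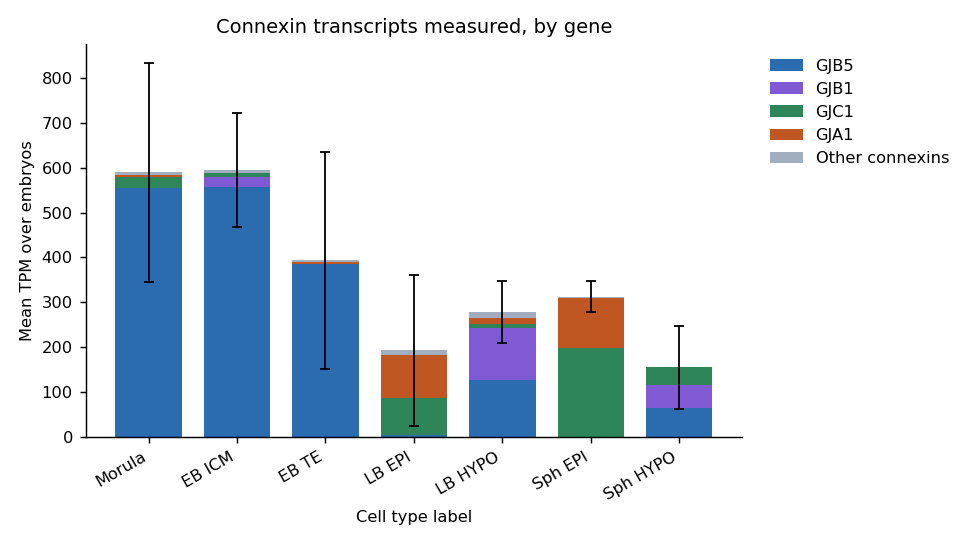
Mean TPM over embryos of the 9 connexins measured, stacked by gene for each label, with the SD of their sum over embryos as the error bar. GJB5 fills most of the bar in Morula, EB ICM and EB TE, GJB5 and GJB1 in LB HYPO, GJA1 and GJC1 in LB EPI and Sph EPI, and GJB5, GJB1 and GJC1 in Sph HYPO.

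The number of connexins per cell varied by label. Counting GJB5, GJA1, GJB1 and GJC1 above 1 TPM, 34 of 47 Morula cells and 21 of 28 EB TE cells had 1 of the 4. In EB ICM 12 of 24 cells had 2 and 11 had 1, and in LB EPI 13 of 25 had 2 and 10 had 1. In Sph EPI 44 of 48 cells had 2, and in LB HYPO 21 of 36 had 2, 11 had 3 and 2 had all 4.

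GJA9 and GJA10 were scarce. GJA9 exceeded 1 TPM in 5 of 24 EB ICM cells and in 3 cells or fewer of any other label, and GJA10 in 2 cells or fewer of any label. Of the pannexins, which form channels without docking, PANX2 alone was tested. It was called in none of the 5 comparisons by edgeR, DESeq2 or limma, and its unadjusted p was under 0.05 in 0 of them.

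Of 18 genes for proteins that anchor or regulate gap junctions, 12 were tested. Between Morula and LB EPI edgeR called 3 of the 12, where 8.69% of all genes were called. TJP1 and PRKCD were higher in Morula and SRC higher in LB EPI, and the median log2 fold change of the 12 was 0.25 against -0.05 over all genes. With SRC and CAV1, which had no Morula count, at their bounds this median is the same. TJP1 encodes the scaffold that binds the tail of GJA1, and it was 3.09 higher in Morula (SE 0.80, adjusted p 0.0258 in edgeR). PRKCD, a kinase, was 3.58 higher (SE 0.99, adjusted p 0.0342 in edgeR). SRC, a tyrosine kinase that phosphorylates GJA1, had no count in the Morula embryos and 244 in LB EPI, at least 161-fold higher after scaling (adjusted p 0.0228 in edgeR).

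Between EB ICM and Sph EPI, 1 of the 12 was called, a share near the 6.73% of all genes, so the count says nothing about the list. CAV1, the caveolae protein, had no count in EB ICM and 18457 counts in Sph EPI, at least 2826-fold higher after scaling (adjusted p 0.000274 in edgeR). The median of the 12 was -0.06 against -0.30 over all genes, also with CAV1 at its bound. In the other 3 comparisons none of the 12 passed edgeR's threshold, among 119, 283 and 24 genes called. The lowest adjusted p there was 0.0539 for EZR between LB EPI and LB HYPO. At an unadjusted p under 0.05 in edgeR there were 2 between Morula and EB TE, 4 between LB EPI and LB HYPO and 4 between LB HYPO and Sph HYPO. Over all 14721 genes the numbers were 3075, 2943 and 1402, so these counts are not read as a result about the list. SRC, among the 2, had 0 counts in Morula and 3 in EB TE. CAV1, among the 4 between the HYPO labels, had 0 counts in LB HYPO and 2 in Sph HYPO. DESeq2 and limma called 0 of the 12 in each of these comparisons.

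The genes most like each member over the 41 sums were taken by Pearson's r of log2(CPM + 1), as a description. The points share embryos, library pools and the 7 labels. For GJB5 these were the glycine cleavage gene GLDC (r 0.88), PHYHD1 (0.86), GNPTAB (0.85), TBX3 (0.85) and UBASH3B (0.84). GNPTAB, a subunit of the enzyme that tags lysosomal proteins, led both by Spearman's rho (0.81) and by the means of the 7 labels (r 0.99), and it was 8.18 in Morula and 2.44 in Sph EPI on the log2 scale. TBX3, a transcription factor of the naive state, was 9.00 in Morula, 5.17 in LB HYPO and 0.04 in Sph EPI.

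For GJA1 the 5 were DYRK3 (r 0.80), SEPTIN6 (0.77), CPT1C (0.77), RRAGD (0.77) and CHRNA3 (0.76). DYRK3, a kinase, was 7.15 in Sph EPI, 6.24 in LB EPI, 2.18 in LB HYPO and 0 in EB ICM on the log2 scale. In LB HYPO the means of RRAGD and CHRNA3 were 0.32 and 0.05, against 3.91 for GJA1. Over the same 41 sums the members themselves had r of -0.70 and rho of -0.68, which the contrast that chose them partly fixes.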

How the data were processed

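The files deposited by the authors hold the raw count of each gene in each cell, and the TPM values derived from those counts. Per the study's methods and the labels, reads were trimmed with scythe and sickle, aligned with HISAT2 2.1.0 to the Sus scrofa v10.2 assembly and counted with htseq-count on Ensembl genes, and cells with few gene reads, a high mitochondrial share or an outlying t-SNE position had been removed. Smart-seq2 has no molecular identifiers, so intervals and limits cover counting error only, and a low level can be missed in a cell. No doublet caller was run on these hand-picked cells.

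Groups were the cell type labels. The embryo was read from the letters of the cell identifier, which left 1 Morula cell without an embryo (used per cell only) and made E6-ER2 and AP-ER2 less certain. The p-values measure the spread between embryo sums, which were taken as unpaired except in the model with an embryo block. Counts were summed per embryo and label (41 sums, 6 of them a single cell). A gene was tested if 3 or more cells had over 1 TPM, with glmQLFit and glmQLFTest in edgeR 4.0.16 (R 4.3.3), with TMM and Benjamini-Hochberg adjustment at 0.05. A positive fold change is higher in the label named first, and its SE is its size over the square root of F. Levels are log2(CPM + 1). A fold against a label with no count uses 3 counts over the label. The study itself compared single cells, which share embryos.

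LB EPI and LB HYPO shared 3 embryos, by these letters. In deviations from the label means over 7167 genes, the sums of an embryo correlated by 0.02 in AN, 0.05 in AO and -0.02 in AP, so the embryo was a block only in an alternative. The other tested comparisons shared no embryo.

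Named genes were GJB5 and GJA1, the measured connexins, the pannexins and junction partners that were called, and for each member the 5 genes with the highest Pearson r. The members, lists and tests were chosen with earlier results of these data known. No 2 cells had identical counts (highest correlation 0.83). Symbols covered 11437 Ensembl identifiers. The edgeR fit was tested on simulated data. Alternatives were DESeq2 1.42.0, limma 3.58.1, no TMM, no filter, all labels in 1 model, sums of at least 2 cells, other handling of the uncertain cells, the first and last 4 of the 8 library pools, each embryo left out, the embryo block, exact permutation (scipy 1.17.1) and other TPM thresholds. Plots were drawn with matplotlib 3.10.9. Some genes of the gene lists are not reported here by name.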

Additional observations from a re-analysis of the deposited data

Results flagged for a closer look

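A sum stood far from the others of its label in 1 of 8 sets of 4 to 10 sums tested, which leave out the 2 labels that chose the genes. About 1 in 20 is flagged by chance where no values are tied. GJB5 in LB EPI was 3.32 in embryo AQ on the log2(CPM + 1) scale, while the other 3 embryos had 0, 0 and 0.42. Of its 168 counts, cell AQ6 gave 138 and cell AQ5 gave 30, and the other 8 cells of AQ gave none.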

How the results depend on the processing

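The GJB5 difference between Morula and LB EPI kept its direction and its call in 21 of 22 alternatives, with 5.99 and an adjusted p of 0.0632 in the first 4 library pools, and 6.39 to 11 as each embryo was left out. GJA1 there passed the threshold with limma (-4.41) and in the exact test (-5.20), and was -5.53 to -3.30 without single embryos. GJB5 between LB EPI and LB HYPO was called by DESeq2 (-4.64), limma (-5.45), all 7 labels in 1 model (-4.65) and the exact test (-4.98), and was -8.83 (without LB EPI embryo AQ, called) to -4.18 without single embryos; GJA1 passed in the exact test (2.90). With the embryo as a block these were -9.77 and 3.92 and both stayed uncalled, and the other tested comparisons shared no embryo. GJA1 between LB HYPO and Sph HYPO was called by DESeq2 (5.27), and GJB5 there was -0.30 in the last 4 pools. GJA1 between Morula and EB TE was -1.23 with DESeq2, -0.11 with limma, and -0.95 to 1.46 without single embryos. The causes were not tested.

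Counts of called genes moved more. For Morula against EB TE, the 119 became 611 with DESeq2, 381 with limma, 894 with all labels, 241 with sums of at least 2 cells, 219 without the uncertain cells, 20 and 50 in the first and last 4 pools and 56 to 219 without single embryos, with 219 without TE embryo E6-ER and 56, 65, 68, 73, 74 and 76 without Morula embryos S, U, X, ER, W and T. For Morula against LB EPI, the 1279 became 2330, 1941, 325 and 663 with DESeq2, limma and the 2 sets of pools, and 798 (without LB EPI embryo AP) to 1327 without single embryos. For LB EPI against LB HYPO, the 283 became 1381, 734, 113 and 64, then 170 with all labels, 20 with the block and 138 to 294 without single embryos, with 138 without LB EPI embryo AQ, 146 without LB EPI embryo AP and 163 without LB HYPO embryo AM. For LB HYPO against Sph HYPO, the 24 became 342, 51, 37 and 39, and 17 to 110 without single embryos, the 110 without embryo F. For EB ICM against Sph EPI, the 990 became 2079, 1722, 452 and 374, and 492 to 1003 without single embryos, with 492, 529 and 530 without Sph EPI embryos F, D and C. With other TPM thresholds several shares moved by 1 cell: at TPM over 10, GJB5 and both genes stood in 0% of Sph EPI cells and GJA1 in 0% of Sph HYPO cells, and at TPM above 0, GJA1 stood in 100% and neither gene in 0% of Sph EPI cells. Above 0, GJA1 stood in 4 of 12 Sph HYPO cells in place of 1, both genes in 2 of 12 in place of 0, and both in 11 of 36 LB HYPO cells in place of 7. Of the 5 genes most like each member, 1 was shared with Spearman's rho and 1 with the means per label. At this depth a low level can be missed, so a share of cells with a count is not a share of cells that express the gene.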

Other observations

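All 6 HYPO markers stayed above 1 TPM in at least 50% of Sph HYPO cells and GJB1 in 11 of 12, while GJB5 stood in 5 of 12. GJB1 had 54.4 TPM in embryo C, 55.2 in E and 43.7 in F, where GJB5 had 0, 181 and 13.7. The Sph HYPO cells with GJB5 had 0.731 to 141 TPM of summed EPI markers, and the 7 without it had 18.7 to 259. Their summed HYPO markers were 85.9 to 285 TPM (median 156), against 142 to 480 (median 286) in the 7.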
